A study of Mus musculus with 24 samples.

Results

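The potassium channel genes are the 94 protein-coding genes of the mouse genome whose symbols start with Kcn and a further letter, out of 21938 protein-coding genes on the same 21 chromosomes. The rule uses the symbol alone and no measured value. By subunit type they are 40 voltage-gated alpha subunits, 13 auxiliary subunits of voltage-gated channels, 12 calcium- or sodium-activated channel genes, 15 inward rectifiers and 14 two-pore channels. Binding of the transcription factor MYT1L to their chromatin was measured by CUT&RUN, which uses a nuclease tethered to an antibody to cut out the bound DNA. The samples, labelled C57BL/6J, were cortex of wild-type (WT) embryos at E18.5, prefrontal cortex of WT pups at P0, and prefrontal cortex of 3-month-old mice of 2 genotypes, Myt1l heterozygotes (HET) and WT. HET mice carry a germline frameshift deletion in 1 Myt1l allele in every cell, and no group received a treatment. Each group had 3 MYT1L and 3 IgG libraries, and some adult titles name Myt2l or Myt3l, although their descriptions name the Myt1l list. The labels give cortex at E18.5, whereas the study's methods give prefrontal cortex at all stages. The labels give the strain as C57BL/6J, whereas the methods describe the mutant line as made in and bred to C57BL/6N. No marker of cell type could be checked, since the files hold positions and no expression.

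The authors deposited 1 merged list of bound sites per MYT1L group, with 14477 sites at E18.5, 40698 at P0, 56937 in adult HET and 32145 in adult WT cortex. The median site width was 593 bp at E18.5, 276 bp at P0, 108 bp in adult HET and 167 bp in adult WT cortex. The lists have no score and no value per library, so nothing below has a replicate error and no difference between lists could be tested against the spread of samples. Sequencing depth was unknown. Both younger groups carry sequencing run 1 and both adult groups run 2, so between adult and younger cortex the stage cannot be told apart from the run. In tissue, fewer cells of a type and less binding per cell cannot be told apart either.

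Potassium channels let potassium leave or enter cells and thereby set resting potential, spike shape and firing rate. Voltage-gated channels are tetramers of alpha subunits with cytoplasmic or membrane partners. Calcium-activated channels follow spikes, inward rectifiers and two-pore channels hold the resting potential, and many of these genes are switched on as cortical neurons mature. MYT1L is a zinc finger factor of neurons that is known mainly as a repressor of non-neuronal genes, and its known binding word is AAAGTT.

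Sequences of 7 sites show what was bound at channel genes. All are from the plus strand of build mm10 (GRCm38.p6), 5′ to 3′, in lower case, with AAAGTT or its reverse complement AACTTT in capitals. The first 4 sites are shown because the same place was listed at E18.5, at P0 and in adult WT cortex, and each is given with the limits of the adult WT list. The Kcnc1 site lay 270 bp upstream of the nearest transcription start of this Kv3 gene, the Kcnj2 site lay in an intron 426 bp downstream of its start, and the Kcnq3 and Kcnq5 sites lay in introns of these M-current genes, 46571 bp and 38612 bp downstream.
Kcnc1, chr7:46422332-46422487: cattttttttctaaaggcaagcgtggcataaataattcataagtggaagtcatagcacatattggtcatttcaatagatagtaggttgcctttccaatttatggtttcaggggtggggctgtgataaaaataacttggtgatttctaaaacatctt
Kcnj2, chr11:111066485-111066694: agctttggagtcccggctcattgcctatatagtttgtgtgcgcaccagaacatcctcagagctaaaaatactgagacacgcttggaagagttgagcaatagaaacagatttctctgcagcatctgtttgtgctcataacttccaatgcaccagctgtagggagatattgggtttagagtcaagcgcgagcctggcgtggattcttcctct
Kcnq3, chr15:66239387-66239572: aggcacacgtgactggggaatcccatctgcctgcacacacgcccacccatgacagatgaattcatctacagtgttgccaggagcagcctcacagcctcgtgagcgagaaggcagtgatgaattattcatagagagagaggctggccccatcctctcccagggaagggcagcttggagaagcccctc
Kcnq5, chr1:21922923-21923015: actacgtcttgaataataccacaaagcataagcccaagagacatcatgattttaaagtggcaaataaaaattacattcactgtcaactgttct

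None of these 4 sites held the word within the adult WT limits. Within the wider limits of other lists, the Kcnj2 site held 2 copies at E18.5, and the Kcnq5 site 2 copies at E18.5 and at P0. The next pair is shown because both sites held the word and recurred in the adult HET list. The Kcnab2 site, in an intron of a Kv beta gene 13048 bp from the nearest start, was listed at E18.5, at P0 and in adult HET cortex, and held 2 copies 4 bp apart. The Kcnk4 site, in an intron 754 bp from a start of a mechanosensitive two-pore channel gene, was the 1 site within 5 kb of a channel start that both adult genotypes listed.
Kcnab2, chr4:152405240-152405478: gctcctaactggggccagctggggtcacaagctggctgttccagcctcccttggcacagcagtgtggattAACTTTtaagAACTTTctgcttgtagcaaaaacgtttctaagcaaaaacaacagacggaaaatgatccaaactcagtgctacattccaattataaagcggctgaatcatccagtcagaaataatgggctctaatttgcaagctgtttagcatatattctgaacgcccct
Kcnk4, chr19:6932017-6932129: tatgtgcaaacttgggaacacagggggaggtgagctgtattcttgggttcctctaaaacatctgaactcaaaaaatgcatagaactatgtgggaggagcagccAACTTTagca

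The last site lay in a promoter at P0 alone and also held the word. Kcnmb4 encodes the neuronal beta subunit of the large-conductance calcium-activated (BK) channel, and its site was centred 233 bp upstream.
Kcnmb4, chr10:116474029-116474193: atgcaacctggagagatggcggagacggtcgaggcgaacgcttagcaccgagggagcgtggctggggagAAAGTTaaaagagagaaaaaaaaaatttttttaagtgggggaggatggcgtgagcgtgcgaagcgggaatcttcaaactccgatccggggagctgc

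A gene was called a target where at least 1 bp of a site lay within 5 kb of any of its annotated transcription starts. At E18.5, 15 of the 94 channel genes were targets, which was 16.0% (exact Clopper-Pearson 95% interval 9.22 to 25.0%) against 31.7% of all protein-coding genes. At P0 there were 35 target channel genes, or 37.2% (27.5 to 47.8%), against 48.7% of all genes. The channel share lay below that of genes at large in both younger lists. In adult HET cortex 30 channel genes were targets, 31.9% (22.7 to 42.3%) against 30.4% of all genes. In adult WT cortex 24 were targets, 25.5% (17.1 to 35.6%) against 24.6% of all genes. Both adult shares were close to the background. With a limit of 10 kb the adult HET share was 42.6% against 43.8% and the adult WT share 47.9% against 33.4% of all genes. The intervals cover counting error only and treat genes as independent.

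Going by gene, 21 channel genes (22.3%) were targets at P0 only of these first 2 stages, against 18.8% of all genes, and 1 (1.06%), the small-conductance calcium-activated channel gene Kcnn1, was a target at E18.5 and not at P0, against 1.83% of all genes. From P0 to the adult WT, 9 channel genes (9.57%) were targets in adult WT cortex and not at P0, against 6.59% of all genes, and 20 (21.3%) were targets at P0 and not in adult WT cortex, against 30.6%. In the adult, 17 channel genes (18.1%) were targets in HET and not in WT cortex, against 18.6% of all genes, and 11 (11.7%) in WT and not in HET cortex, against 12.9%. The turnover between genotypes was near that of all genes in both directions. A total of 55 channel genes (58.5%) were targets in at least 1 list, against 64.7% of all genes, and 5 (5.32%) in all 4 lists, against 7.22%.

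**Figure D1:**
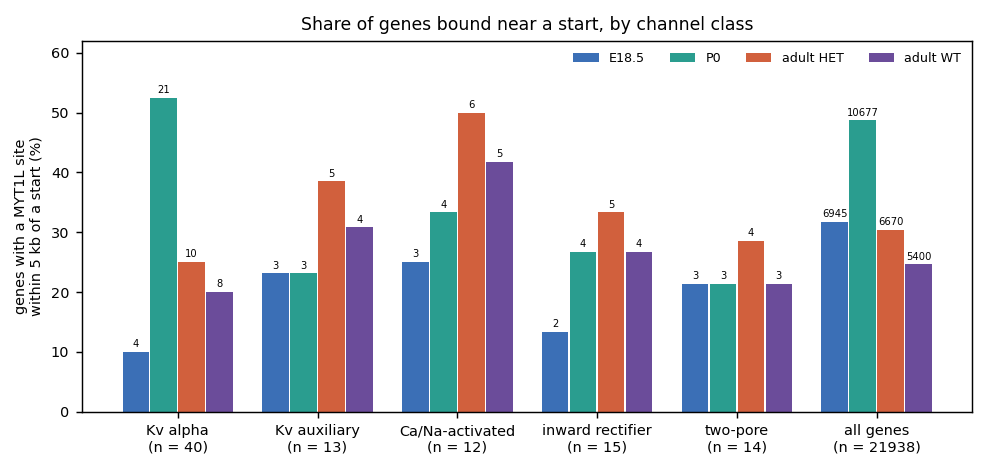
Share of genes with a MYT1L site within 5 kb of a transcription start (%), by channel class and over all protein-coding genes. Bars are the 4 merged site lists in the order E18.5, P0, adult HET and adult WT, with the number of target genes above each and no error, as each group has 1 list. The Kv alpha bars are 10% at E18.5 and 52.5% at P0, the widest step between these lists of any class.

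The channel classes differed in how they moved between lists. Of the 40 voltage-gated alpha subunit genes, 4 (10%) were targets at E18.5, 21 (52.5%) at P0, 10 (25.0%) in adult HET and 8 (20%) in adult WT cortex. Among the 21 channel genes gained at P0 over E18.5, 17 were voltage-gated alpha subunits, 2 were calcium- or sodium-activated and 2 were inward rectifiers. The auxiliary and two-pore classes each had 3 targets at E18.5 and 3 at P0. All genes stood at 48.7% at P0 and 31.7% at E18.5. With the widest 14477 sites of every list, which cuts the P0 list in both number and width, the alpha subunit count was 10 of 40 at P0 against 4 of 40 at E18.5, while all genes stood at 29.1% and 31.7%. With sites wider than the median of their own list the counts were 11 and 2, and all genes stood at 36.3% and 18.4%. Within 1 kb of a start the counts were 18 at P0 and 4 at E18.5, and all genes stood at 41.8% and 27.7%.

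Among the alpha subunits, several were targets at P0 alone. Kcnb2, which encodes a delayed rectifier, had a 231 bp promoter site at P0 and no site within 5 kb of a start in the other lists. Kcnd2 and Kcnd3, which encode the A-type current of dendrites, had 2 sites each at P0, with 679 bp and 382 bp of listed sequence near a start, and none there in the other lists. The third Kv4 gene, Kcnd1, had no site near a start in any list. The Kcnd2 site of 449 bp was centred 62 bp upstream of the start.

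Kcnc1 encodes a Kv3 channel that supports fast spiking. Within 5 kb of a start it had 1 site at E18.5, 2 at P0, none in adult HET and 1 in adult WT cortex. The site just upstream of an internal start was common to the 3 lists. Kcnc2 of the same family had 2 promoter sites at P0 alone, and Kcnc4 was a target in no list.

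Kcnq3, whose product contributes to the M-current that limits repetitive firing, was a target at P0 and in adult HET cortex, but neither at E18.5 nor in adult WT cortex. Within 5 kb of a start it had a 337 bp site at P0, centred 31 bp from a start, and a 114 bp site 1849 bp downstream, 451 bp in all. In adult HET cortex it had 3 sites there, of 160 bp, 184 bp and 91 bp, with 435 bp in all. None of these 3 overlapped a P0 site.

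Among the 8 EAG, ERG and ELK genes, 2 (25.0%) were targets at E18.5, 5 (62.5%) at P0, 3 (37.5%) in adult HET and 2 (25.0%) in adult WT cortex. Over all genes it was 31.7%, 48.7%, 30.4% and 24.6%, and over all genes longer than 100 kb 39.2%, 68.4%, 48.2% and 40.7%. The median length of these 8 genes was 156 kb. Kcnh8, an ELK gene, had the widest alpha subunit site at E18.5, 1572 bp centred 1250 bp upstream of a start. At P0 it had 3 sites near a start with 1454 bp in all. Neither adult list had a Kcnh8 site near a start, though its body held 8 sites in adult HET and 2 in adult WT cortex. Kcnh7, an ERG gene, had an 858 bp site at E18.5 that reached across the 5′ end of the gene, with its midpoint in an intron. The 521 bp Kcnh7 site at P0 overlapped it. Kcnh3 was a target at P0 alone, Kcnh1 at P0 and in adult HET, Kcnh5 at P0 and in adult WT, and Kcnh2, the ERG gene best known from the heart, in both adult lists.

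The 8 Kv1 genes, whose products sit mostly on axons, had no target at E18.5, when 31.7% of all genes were targets. At P0 and in adult WT cortex Kcna1, Kcna3 and Kcna6 were targets, while in adult HET cortex Kcna4 and Kcna5 were. Among Kv1 sites near a start, the only one to recur was that of Kcna3, 2473 bp downstream of its start at P0 (712 bp wide) and 2700 bp downstream in adult WT cortex (241 bp wide). Of the 10 silent modifier subunit genes, which act with Kv2 partners, none was a target at E18.5. At P0 4 (40.0%) were, namely Kcnf1, Kcng1, Kcng3 and Kcnv1, against 48.7% of all genes. Kcng3 and Kcnv1 were also targets in adult WT cortex, with 160 bp and 650 bp, and Kcns1 and Kcnv2 in adult HET cortex alone.

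**Figure D2:**
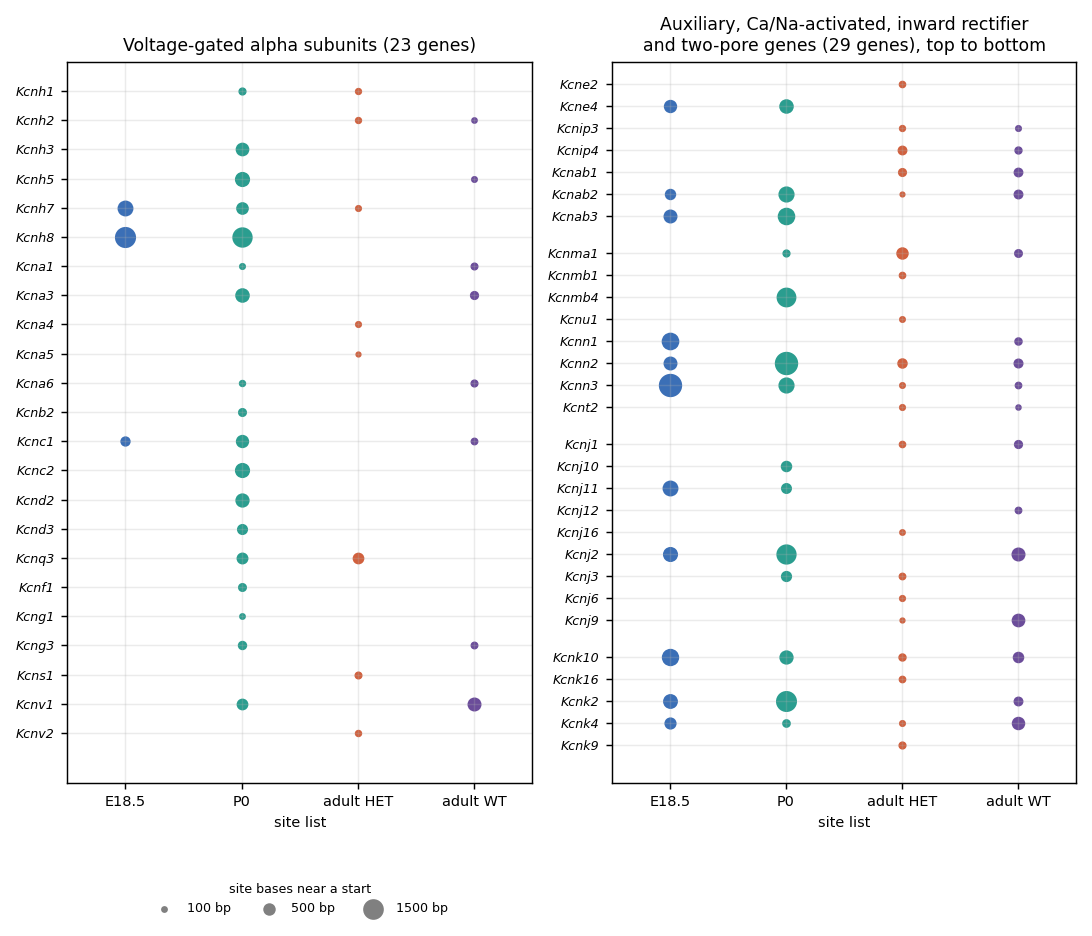
52 of the 55 channel genes with a site near a start in at least 1 list (the other 3 are not drawn), with a dot for each list where the gene was a target and dot area growing with the bases of listed sites within 5 kb of a start (bp). The left panel holds 23 of 26 target voltage-gated alpha subunits, most with a P0 dot and few with an E18.5 dot, and the right panel 29 genes of the other classes.

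The auxiliary subunits differed in their stages by family. The KChIP genes, calcium sensors that bind Kv4 channels, had no target in either younger list, and 2 of 4 in each adult list. These were Kcnip3 and Kcnip4 in both genotypes. The median length of the KChIP genes was 215 kb. Of all genes over 100 kb, 39.2% were targets at E18.5, 68.4% at P0, 48.2% in adult HET and 40.7% in adult WT cortex. The adult KChIP counts were thus near that background, and they rest on 4 genes. The Kv beta gene Kcnab2 was a target in all 4 lists. Its promoter site was 408 bp wide at E18.5, 412 bp at P0 and 291 bp in adult WT cortex, centred 64, 61 and 72 bp upstream, while the adult HET site, 69 bp wide and 2109 bp upstream, was a different one. That promoter also lies within 5 kb of a start of the neighbouring gene Nphp4. Kcnab3 was a target in both younger lists and Kcnab1 in both adult lists. Kcne4, which encodes a small membrane subunit, had a site of 584 bp at E18.5 and 708 bp at P0 in its untranslated region and none in the adult.

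The small-conductance calcium-activated channel genes, which generate the afterhyperpolarisation, included 2 of the 5 channel genes listed throughout. These were Kcnn2 and Kcnn3. Kcnn3 had the most listed sequence near a start at E18.5, 1931 bp in 2 sites, then 893 bp in 2 sites at P0, 109 bp in 1 site in adult HET and 152 bp in 1 site in adult WT cortex. Near a start Kcnn2 had 647 bp in 2 sites at E18.5, 1940 bp in 4 sites at P0, 335 bp in 3 sites in adult HET and 300 bp in 2 sites in adult WT cortex. The Kcnn2 site of 1380 bp at P0 overlapped a site of both E18.5 and adult WT cortex. Kcnn1 was a target at E18.5, with 1078 bp, and in adult WT cortex, with 196 bp, at overlapping places about the same distance upstream, 2413 bp and 2532 bp.

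The BK alpha gene Kcnma1 was a target at P0 with 1 site (177 bp), in adult HET with 3 sites (502 bp) and in adult WT cortex with 1 site (225 bp), and none of these overlapped another. Its HET value was the largest near any channel start in that list. Kcnmb4, the neuronal BK beta gene, had 3 promoter sites with 1374 bp at P0 and none near a start in the other lists. Kcnmb1, the beta subunit of smooth muscle, and Kcnu1, the sperm channel Slo3, were targets in adult HET cortex alone. The sodium-activated channel gene Kcnt2 was a target in both adult lists, and its relative Kcnt1 had no site in any list, near a start or in the body.

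Among 15 inward rectifier genes, 2 (13.3%) were targets at E18.5, 4 (26.7%) at P0, 5 (33.3%) in adult HET and 4 (26.7%) in adult WT cortex. Over all genes it was 31.7%, 48.7%, 30.4% and 24.6%, so the rectifier share was lower in the younger lists and near the background in the adult. Kcnj2, the classical strong rectifier, had 766 bp in 1 site at E18.5, 1438 bp in 3 sites at P0, no site near its start in adult HET and 654 bp in 2 sites in adult WT cortex, and the intron site printed above was in the 3 lists that had it. Kcnj11, the pore of the ATP-sensitive channel, was a target in both younger lists. It had a site of 560 bp at E18.5 and of 374 bp at P0 that lay 2711 bp and 2666 bp upstream. At E18.5 a second site near a start, of 300 bp, lay in the gene body. The upstream site was also within 5 kb of a start of Abcc8, the sulphonylurea receptor that completes this channel and lies next to Kcnj11.

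The G-protein-coupled rectifiers were split. Kcnj3 was a target at P0 and in adult HET cortex, Kcnj6 in adult HET cortex alone, and Kcnj9 in both adult lists, with 73 bp in 1 site in HET and 622 bp in 3 sites in WT cortex. Of the glial rectifiers, Kcnj10 had a 414 bp promoter site at P0 alone and Kcnj16 a 101 bp site in adult HET cortex alone, 4769 bp upstream. Kcnj12 was the 1 channel gene that was a target in adult WT cortex alone, with a 155 bp site 2086 bp upstream.

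Of the 14 two-pore genes, Kcnk10 and Kcnk4, both of the mechanosensitive branch, were targets in all 4 lists. Near a start Kcnk10 had 1037 bp in 1 site at E18.5, 680 bp in 1 site at P0, 190 bp in 1 site in adult HET and 418 bp in 2 sites in adult WT cortex. Its younger sites overlapped each other and its HET site overlapped the E18.5 one, while both WT sites lay elsewhere. The E18.5 and P0 sites of Kcnk4, and 1 of its 3 WT sites, were also within 5 kb of starts of Catsperz and Esrra. The E18.5 call of Kcnk4 was close to the limit, with a site edge 4800 bp from a start. The two-pore target count at E18.5 was 3, but 2 with sites placed by their midpoint or given to the nearest start only. Kcnk2, the third gene of that branch, had 743 bp near a start at E18.5, 1554 bp in 5 sites at P0, none there in adult HET and 291 bp in adult WT cortex. Kcnk9 and Kcnk16 were targets in adult HET cortex alone, and the other 9 genes of the class were targets in no list.

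The genes were also grouped by what is known of them, in lists chosen when earlier results of these data were known. Of 15 channel genes linked to epilepsy in humans, 1 (6.67%) was a target at E18.5, 11 (73.3%) at P0, 5 (33.3%) in adult HET and 5 (33.3%) in adult WT cortex. The shares over all genes were 31.7%, 48.7%, 30.4% and 24.6%, and over all genes longer than 100 kb 39.2%, 68.4%, 48.2% and 40.7%. At P0 these included Kcna1, Kcnc1, Kcnc2, Kcnd2, Kcnh1, Kcnh5, Kcnj10, Kcnma1 and Kcnq3, and the E18.5 gene was Kcnc1. Their median length was 196 kb, against 30.8 kb over all channel genes, and their P0 share was near that of all long genes. Of 34 channel genes of cortical neurons, 23.5% were targets at E18.5, 52.9% at P0, 50% in adult HET and 38.2% in adult WT cortex. Their median length was 125 kb, and apart from E18.5 these values lay above the shares of all genes and, for adult HET alone, above that of all long genes. Of 12 genes known mainly outside neurons, none was a target in either younger list, 4 were in adult HET (Kcnj1, Kcnk16, Kcnmb1 and Kcnu1) and 1 in adult WT cortex (Kcnj1). Their median length was 13.1 kb and none had a CpG-rich start, as defined below. In the same order of lists, the shares over all genes under 20 kb were 26.3%, 38.2%, 23.6% and 18.8%. Over all CpG-poor genes they were 15.2%, 27.7%, 25.8% and 17.4%.

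Channel partners without a Kcn symbol were counted for comparison. Of 21 such genes, 7 (33.3%) were targets at E18.5, 11 (52.4%) at P0, 9 (42.9%) in adult HET and 10 (47.6%) in adult WT cortex, against 31.7%, 48.7%, 30.4% and 24.6% of all genes. Adam23, a receptor of the secreted protein Lgi1, had no site near a start at E18.5, 3 at P0, 2 in adult HET and 2 in adult WT cortex. Dlg4, the postsynaptic scaffold that clusters Kv1 channels, had 1, 2, 1 and 4 sites in the same order of lists. Abcc8 and Dlg2 had a site near a start in every list. Dpp10 had none near a start in any list, and Dpp6, the other Kv4 partner of this type, had 2 at P0 alone.

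Adult HET and adult WT cortex shared 13 target channel genes, while 17 were targets in HET alone and 11 in WT alone of this pair. By class, 9 alpha subunit genes were targets in HET and not in WT, 7 in WT and not in HET, and 1, Kcnh2, in both. In the auxiliary class 4 genes were targets in both genotypes and 1, Kcne2, in HET only. Most shared genes had different sites. Of 41 HET sites near a channel start, 1 (2.44%) overlapped a WT site, against 9.08% of the 8231 HET sites near a start of any gene. Counting bodies too, 12 HET sites overlapped a WT site, all of them in introns, among them 1 each at Kcnab1, Kcnip4, Kcnk4, Kcnk10, Kcnn2, Kcnq3 and Kcnt2 and 2 each at Kcnh1 and Kcnj12. The one in Kcnt2, 427 bp wide in HET cortex, held 2 copies of AAAGTT, and 1 of the Kcnj12 places held 1 copy. The HET list covered 6560 kb and the WT list 6580 kb in all, with more and narrower sites in HET.

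The median distance of sites near channel starts was smallest at P0, with that at E18.5 close to it. The median distance between site midpoint and nearest start was 603 bp for 20 sites at E18.5, 539 bp for 64 at P0, 2359 bp for 41 in adult HET and 1620 bp for 33 in adult WT cortex. A promoter, taken as the 1 kb before a start and the 100 bp after it, held 7 of the 20 sites at E18.5, 30 of 64 at P0, 5 of 41 in adult HET and 7 of 33 in adult WT cortex. Distances were not measured over all genes. With a limit of 1 kb, 27.7% of all genes were targets at E18.5, against 31.7% at 5 kb, and 41.8% at P0 against 48.7%. In adult HET cortex it was 12.1% against 30.4%, and in adult WT cortex 13.9% against 24.6%. Over all genes too, the share thus fell most in the adult lists. Channel sites that also lay within 5 kb of another gene's start were 6 at E18.5, 7 at P0, 1 in adult HET and 2 in adult WT cortex. Around the 5 kb limit itself, 4 calls were within 500 bp inside and 8 missed by less than 500 bp. The nearest of these were Kcng1 at P0, with a site edge 4967 bp from a start, and Kcnh7 in adult WT cortex, at 5043 bp.

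**Figure D3:**
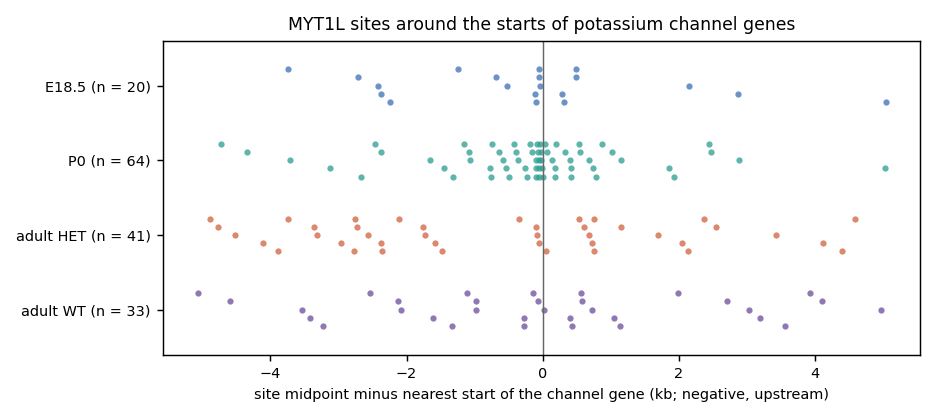
Position of each site near a channel gene start, as site midpoint minus nearest start (kb, negative upstream), by list, with 1 point per site. The P0 points crowd around 0, with a median distance of 539 bp, while adult HET points spread over the whole window, with a median of 2359 bp.

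Counts in the gene body, from the first to the last annotated base, gave a different order of lists. Channel genes with a body site numbered 27 (28.7%) at E18.5 against 32.7% of all genes, 45 (47.9%) at P0 against 48.4%, 52 (55.3%) in adult HET against 36.7%, and 43 (45.7%) in adult WT cortex against 29.6%. Both adult shares were thus above the background and both younger ones below it or near it. For the younger lists this depended on the rule. With sites placed by their midpoint the shares were 26.6% at E18.5 against 20.3% of all genes and 46.8% at P0 against 38.5%, and with sites over 5 kb from every start alone they were 21.3% against 8.41% and 33.0% against 16.8%. Channel genes are long, with a median of 30.8 kb against 17.4 kb, so counts were also set per length. Per 100 kb of body, channel genes had 0.462 sites at E18.5, 1.33 at P0, 2.62 in adult HET and 1.80 in adult WT cortex, against 0.968, 2.39, 2.20 and 1.45 over all genes.

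Most of these sites were intronic. Of sites in a channel gene body over 5 kb from its starts, 33 of 35 were in introns at E18.5, 91 of 94 at P0 and 159 of 163 in adult WT cortex. In adult HET cortex 9 such sites lay in untranslated regions and the rest in introns. Few lay within 5 kb of another gene's start, 2 at E18.5, 3 at P0, 2 in adult HET and 0 in adult WT cortex. At E18.5 and P0 these were sites in Kcnh6, near a start of Dcaf7.

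The 23 channel genes over 100 kb held most body sites. They had 36 of 48 at E18.5, 106 of 138 at P0, 233 of 272 in adult HET and 157 of 187 in adult WT cortex. Per 100 kb this was 0.423, 1.25, 2.74 and 1.85 sites, against 0.597, 1.83, 2.32 and 1.45 in the 2492 protein-coding genes of that length. The longest, Kcnip4, had 5 sites at E18.5, 10 at P0, 37 in adult HET and 18 in adult WT cortex. Kcnh7 had 4, 8, 24 and 15, and Kcnma1 had 2, 6, 19 and 12. These 3 genes had the most body sites in adult HET cortex.

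Other long genes did not follow this order. Kcnh1, an EAG channel gene, had no body site at E18.5 or P0, 9 in adult HET and 16 in adult WT cortex. Kcnj6 had 1, 2, 6 and 12, and Kcnq5, an M-current gene without a site near a start in any list, had 4, 6, 15 and 20. In contrast, Kcnn3 had 5 sites at E18.5, 7 at P0, 3 in adult HET and 1 in adult WT cortex, and Kcnk2 had 2, 9, 6 and 2. Kcnip1 had 9 sites in adult HET and none in adult WT cortex. Kcnip1 overlaps Kcnmb1, and 2 of its HET sites were counted for both.

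**Figure D4:**
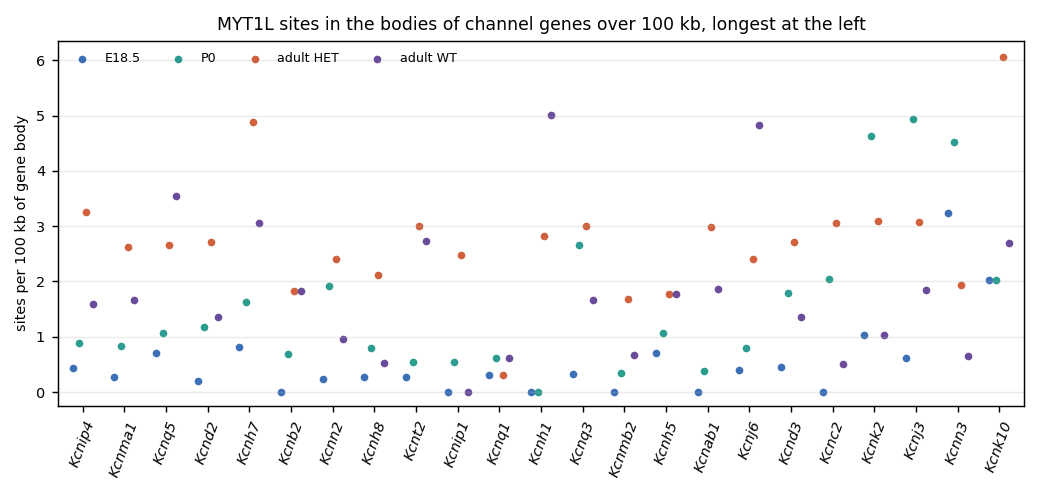
MYT1L sites per 100 kb of gene body in the 23 channel genes over 100 kb, ordered by length with the longest, Kcnip4, at the left, and 1 point per list. Adult HET points lie above the younger lists in most genes, and Kcnn3, Kcnj3 and Kcnk2 have their highest point at P0, at 4.52, 4.93 and 4.63 sites per 100 kb.

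Recurrence of the same place was counted over all sites near a channel start or in a channel body, 55 at E18.5, 158 at P0, 279 in adult HET and 196 in adult WT cortex. Of the P0 sites 28.5% overlapped an E18.5 site, against 36.9% of all P0 sites at genes, and 80.0% of the E18.5 sites overlapped a P0 site, against 88.7%. The channel shares lay below those of all genes in both directions. Of the adult WT sites 9.18% overlapped a P0 site, against 14.5% at all genes. Of the P0 sites 11.4% overlapped an adult WT site, against 8.75%, so the direction depended on which list was counted. For adult WT sites found at P0 it also depended on place, with 18.2% against 26.7% near a start and 7.36% against 6.75% in bodies. Of the adult HET sites 4.30% overlapped a WT site, against 6.29%, and of the WT sites 5.61% overlapped a HET site, against 9.31%. Of the adult WT sites 6.12% overlapped an E18.5 site, against 13.2%, and 23.6% of the E18.5 sites overlapped an adult WT site, against 20.5%. For adult WT sites found at E18.5 the shares were 15.2% against 27.1% near a start and 4.29% against 4.34% in bodies. No site at a channel gene was in all 4 lists, while 452 of the 9936 E18.5 sites at all genes were.

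Sites in 3 or more lists numbered 14 at E18.5, 14 at P0, 4 in adult HET and 10 in adult WT cortex. Kcnq3 held 2 such places, the printed intron site and a second one listed at P0 (chr15:66172492-66172719), in adult HET and in adult WT cortex. Kcnq5 also held 2, both listed at E18.5, P0 and in adult WT cortex, the second 444385 bp from a start. Kcnip4, Kcnh5 and Kcnh7 each held an intron site that recurred at E18.5, P0 and in adult WT cortex, and Kcnip4, Kcnab2 and Kcnk10 one that recurred at E18.5, P0 and in adult HET cortex. These counts were not set against all genes. Sites in 1 list alone numbered 7 of 55 at E18.5 and 103 of 158 at P0, against 738 of 9936 and 15777 of 26592 at all genes. In adult HET they were 260 of 279 against 22350 of 25025, and in adult WT cortex 165 of 196 against 12570 of 16396.

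**Figure D5:**
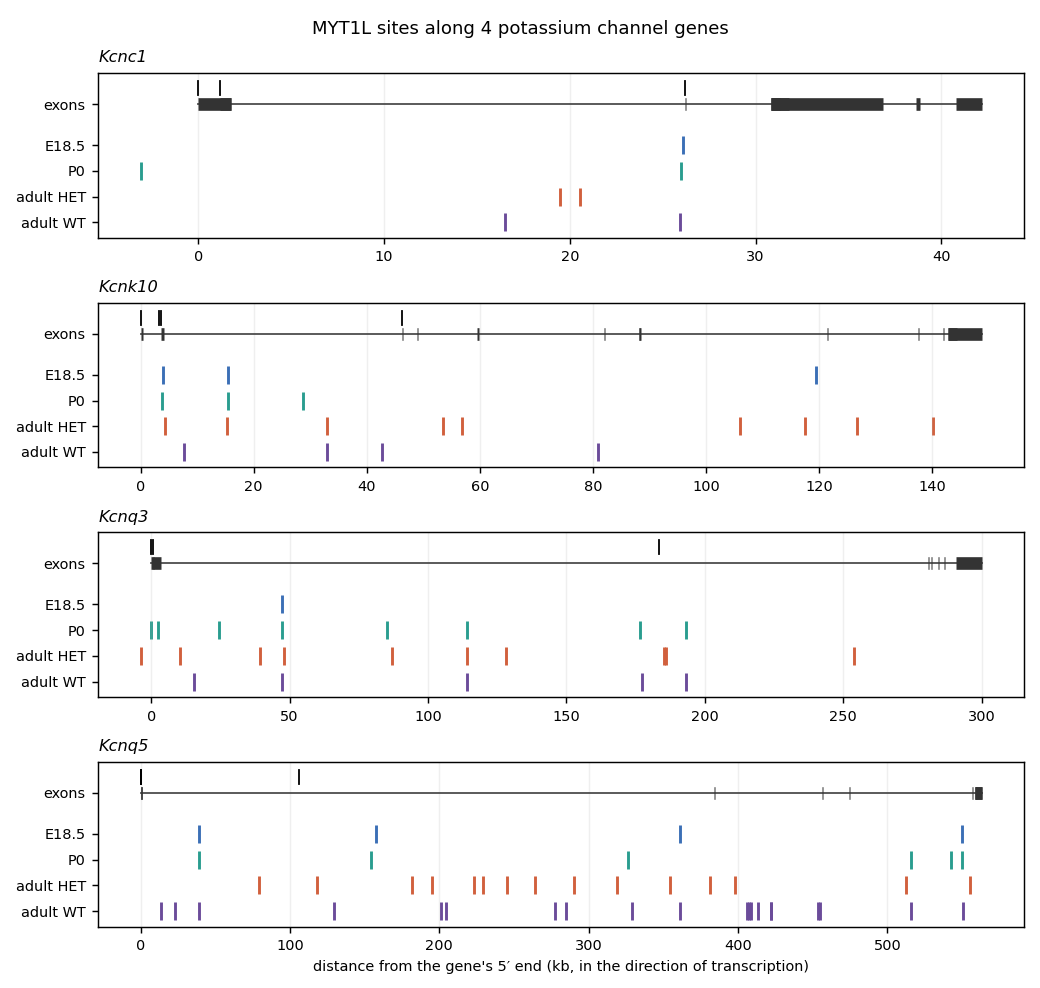
Site midpoints of the 4 lists along Kcnc1, Kcnk10, Kcnq3 and Kcnq5, with the horizontal axis in kb from the 5′ end of the gene in the direction of transcription. Thick bars are exons, short lines above them annotated transcription starts, and coloured ticks sites of each list. Ticks stand in 1 column where lists share a place, such as the Kcnc1 site listed at E18.5, P0 and in adult WT cortex, 109 to 270 bp upstream of the most distal start.

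Channel genes were split by the base composition of their start, with CpG-rich meaning at least 50% GC and an observed over expected CpG ratio of at least 0.6 within 500 bp each side of the 5′ end. Of the 35 CpG-rich channel genes 20% were targets at E18.5, against 52.2% of all CpG-rich genes. At P0 it was 54.3% against 75%, in adult HET 25.7% against 36.2%, and in adult WT cortex 17.1% against 33.7%. CpG-rich channel genes were below other CpG-rich genes in every list.

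The 59 CpG-poor channel genes were a little below other CpG-poor genes in both younger lists and above them in both adult lists. They were targets in 13.6% at E18.5 against 15.2% of all CpG-poor genes, in 27.1% at P0 against 27.7%, in 35.6% in adult HET against 25.8%, and in 30.5% in adult WT cortex against 17.4%. Of the 35 CpG-rich genes, 19 were alpha subunits. By length, channel genes over 100 kb were targets in 26.1% at E18.5, 65.2% at P0, 52.2% in adult HET and 39.1% in adult WT cortex, against 39.2%, 68.4%, 48.2% and 40.7% of all genes over 100 kb. In that length class the gap at P0 was small.

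The word AAAGTT, on either strand within 75 bp of the midpoint, was at 16.4% of the channel sites at E18.5, 14.6% at P0, 18.3% in adult HET and 15.8% in adult WT cortex. Over the sites at all genes the shares were 13.5%, 13.9%, 14.0% and 13.2%. The channel values rested on 9, 23, 51 and 31 sites with the word. Within 250 bp the channel shares were 41.8%, 31.6%, 35.8% and 39.8%, against 33.4%, 33.5%, 36.5% and 33.4%. With sites near a start and in bodies pooled, the channel share was thus above that of all genes in every list with the narrow window. With the wide window the pooled channel share was below it at P0 and in adult HET cortex. The narrow-window direction depended on place. Among body sites not near a start the channel share was below, with 14.3% against 18.6% at E18.5 and 13.8% against 16.3% at P0. Near a start it was below in adult WT cortex, with 9.09% against 11.3%, and rested on 3 channel sites with the word. For each place the other lists had a channel share above that of all genes. RefSeq promoter sequences, 250 bp before to 50 bp after a start, were at hand for 72 channel genes, of which 9 (12.5%) held the word on either strand, against 15.9% of 27025 genes.

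Finally, 39 channel genes were targets in no list, of which 20 had no site near a start or in the body in any list. These included Kcna7, Kcne1, Kcne1l, Kcne3, Kcng4, Kcnh4, Kcnj5, Kcnj8, Kcnj13, Kcnj14, Kcnk5, Kcnk6, Kcnk7, Kcnk18, Kcnmb3, Kcnn4, Kcnrg, Kcns2 and Kcnt1. Some are known from the heart, epithelia and blood, such as Kcne1, Kcne3 and Kcnn4, and others from the brain, such as Kcnt1 and Kcnh4. The 10 genes that were targets at P0 alone included Kcnb2, Kcnc2, Kcnd2, Kcnd3, Kcnf1, Kcng1, Kcnh3, Kcnj10 and Kcnmb4. The 11 that were targets in adult HET cortex alone were Kcna4, Kcna5, Kcne2, Kcnj6, Kcnj16, Kcnk9, Kcnk16, Kcnmb1, Kcns1, Kcnu1 and Kcnv2. Targets in at least 1 list were 58.5% of channel genes and 64.7% of all genes. The counts of 20, 10 and 11 genes were not set against all genes, so whether they are unusual was not tested.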

How the data were processed

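MYT1L and IgG CUT&RUN libraries were made from the 4 groups. Reads were processed by the authors with nf-core/cutandrun against mm10, as labels and methods state. Aligner, peak caller, threshold and use of IgG were not given in the sources used here. By contrast, the deposited files hold 1 merged site list per MYT1L group as positions (start and end in bp), with no score or count, so more or deeper libraries could change how many sites a list holds. The 12 IgG libraries were not analysed here.

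Transcription starts were all those annotated in GENCODE vM21 for 21938 protein-coding genes of GRCm38.p6, the assembly of mm10. A site counted as near within 5 kb of a start, by any base, and as shared with 1 bp of overlap. Positions count from 1. The assignment was tested on simulated sites and against bedtools 2.31.1. Python 3.11.15, pandas 2.3.3, numpy 2.4.6, scipy 1.17.1 and pysam 0.24.0 were used.

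Members, classes and gene lists were chosen with earlier results of these data known. Named genes were targets in all lists or in 1 list alone, the 5 genes with most site bases near a start and the 5 with most body sites per list, list members that were targets, and genes without a site. Genes outside that rule were chosen after their values were seen, as were the 7 printed sites. A few genes that the rule would name are not reported here. Alternatives varied the distance, the starts, the site placement, width, number and repeat content, and the motif window.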

Additional observations from a re-analysis of the deposited data

How the results depend on the processing

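No paired analysis was possible because each group has 1 merged list without values per library, and for the same reason no library could be left out. A stricter threshold could not be applied without scores. Over the counts of target genes, genes with body sites, overlaps and motif shares, 41 of 60 alternative values were within 1.5 times the reported value or its interval and 19 moved. The shares of all genes, or of the sites at all genes, that went with each value are given in brackets. With sites wider than the median of their list, target channel genes numbered 7 at E18.5 (18.4%), 22 at P0 (36.3%) and 15 in adult WT cortex (15.4%), and body genes 12 at E18.5 (19.3%). With the widest 14477 sites of each list, targets numbered 21 at P0 (29.1%), 12 in adult HET (10.9%) and 12 in adult WT cortex (14.2%), and body genes 27 at P0 (29.6%), 33 in adult HET (16.3%) and 27 in adult WT cortex (18.3%). Within 1 kb of a start, targets numbered 10 in adult HET (12.1%) and 11 in adult WT cortex (13.9%), and within 10 kb 45 in adult WT cortex (33.4%). With the 5′ end of the gene as its only start, they numbered 19 in adult HET (21.1%) and 14 in adult WT cortex, where the channel share of 14.9% lay below that of all genes. With a motif window of 250 bp each side AAAGTT stood at 41.8% of E18.5 (33.4%), 31.6% of P0 (33.5%), 35.8% of adult HET (36.5%) and 39.8% of adult WT channel sites (33.4%), which turned the direction against all genes at P0 and in adult HET cortex. Placing sites by midpoint or leaving out repeat-rich sites moved no count of channel genes by over 1.5 times. Placing sites by midpoint, and counting only sites over 5 kb from every start, each turned the direction of the body share against all genes at E18.5 and at P0. Of 160 class counts 119 stayed and 41 moved, by a rule of 1.5 times that small counts pass easily. Which setting is nearest to true binding was not tested.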
